A study of Mus musculus with 2 samples.

Results

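Interferon-stimulated genes were described in thymic iNKT cells (invariant natural killer T cells) of the mouse at stage 1, in a wild-type library and in a library from a Uhrf1 knockout (KO). The members were 48 genes set by name, from Isg15 to Lgals3bp, and all 48 were found among the 16386 genes of both deposited tables. iNKT cells are T cells with a semi-invariant receptor for lipid antigens, and stage 1 is an early step of their development. Both groups came from C57BL/6 mice aged 5 weeks; the first was wild type and the second was labelled Uhrf1 KO, with 1 library in each. The sources used here do not give the way Uhrf1 was deleted, the number of mice behind each library or the sorting gate. Genotype and the preparation of a single library cannot be told apart, so the differences below have no replicate check and carry no p-values.

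Interferons are secreted proteins that warn cells of infection. Type I interferons bind the receptor Ifnar1-Ifnar2, type II interferon (interferon-gamma, encoded by Ifng) binds Ifngr1-Ifngr2, and both signal through JAK kinases to STAT proteins. IRF9 is the DNA-binding part of the factor that type I interferon directs to the interferon-stimulated response element (ISRE), while interferon-gamma acts largely through a shorter element called GAS. The induced genes encode proteins that block virus entry, destroy viral RNA, attack vacuoles that hold microbes and feed back on the pathway. In the thymus, medullary epithelial cells make interferon-beta also without infection. Uhrf1 guides Dnmt1, which copies DNA methylation after replication, and in other cell types loss of DNA methylation can raise transcripts of endogenous retroviruses, which RNA sensors of this pathway can read. Retroviral transcripts were not analysed here.

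The ISRE is shown first because it stood before members that rose, members that fell and members that did neither. RefSeq promoter windows of the mouse build GRCm38.p6, which is mm10, from 250 bases before to 50 bases after a start, were found for 37 of the 48 members. The ISRE core searched was TTTC, any 2 bases and TTTC again, on either strand; it was in a window of 20 of the 37 (54.1%), against 3.99% of 27025 genes in the promoter table. The GAS letters TTCNNNGAA were in 12 of the 37 (32.4%), against 9.55% of all. The stretches below lie upstream of the start and run 5′ to 3′ in the direction of the gene, with every base of an ISRE match in capitals. On the reverse strand the match reads GAAA, any 2 bases and GAAA, and overlapping matches run together.
Isg15: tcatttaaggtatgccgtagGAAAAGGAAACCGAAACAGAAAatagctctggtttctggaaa
Ifit1: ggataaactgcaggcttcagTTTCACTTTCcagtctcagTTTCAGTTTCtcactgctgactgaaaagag
Ifit3: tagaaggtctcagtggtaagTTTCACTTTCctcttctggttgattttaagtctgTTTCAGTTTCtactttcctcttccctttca
Ifi203: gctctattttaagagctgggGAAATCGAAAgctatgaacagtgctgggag
Gbp7: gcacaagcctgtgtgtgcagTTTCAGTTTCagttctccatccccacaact
Oas1a: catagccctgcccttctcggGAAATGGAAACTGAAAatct
Oas1g: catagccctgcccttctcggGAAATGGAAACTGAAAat
Bst2: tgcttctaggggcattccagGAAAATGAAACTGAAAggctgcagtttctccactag

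The Isg15 stretch lies at chr4:156200855-156200916 on the minus strand and holds 3 overlapping matches, the first beginning 78 bases before the start. The Ifit1 stretch (chr19:34640765-34640833, plus strand) and the Ifit3 stretch (chr19:34583353-34583436, plus strand) hold 2 separate matches each. Ifi203 lies at chr1:173942498-173942547 (minus), Gbp7 at chr3:142530263-142530312 (plus) and Bst2 at chr8:71537567-71537622 (minus). The neighbours Oas1a (chr5:120907526-120907565, minus) and Oas1g (chr5:120887614-120887651, minus) carry the same matches close to their starts. Over the 31 matches found in members, the first base lay between 156 bases before the start and 19 bases after it, with a median of 53 before. A match is a run of letters and not a measured binding site.

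Uhrf1 itself (Entrez gene 18140, chromosome 17, 56303337 to 56323486) fell from 35.3 to 0.626 in FPKM, on 3032 wild-type and 25 KO reads, a fall of 56.8-fold (interval 38.4 to 88.0). FPKM is a level corrected for transcript length and library size. The libraries held 26005822 and 12189849 reads assigned to genes. Below, "rose" and "fell" mean a log2((KO FPKM + 1) / (WT FPKM + 1)) of at least 1 or at most -1, for genes whose FPKM averages 1 or more over the libraries (the measured genes). Below, a gene's values are FPKM, the wild type first and the KO second. Folds are ratios of scaled counts with a 95% exact interval. The interval covers counting error only: without molecular identifiers, PCR copies are not independent molecules. T cell genes were present in both libraries, with Cd3e at 240 and 271, but Zbtb16, the factor that defines the lineage, fell from 114 to 41.9 (named after its value was seen).

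The members did not move as a block. Among the 47 measured members, 10 rose in the KO, 6 fell and 31 did neither. Usp18, Mx2, Ifi203, Oas2, Gbp6, Irf9, Parp14, Ifitm1, Ifit3 and Isg20 rose, whereas Ifitm3, Oas1a, Ifi35, Oasl1, Cmpk2 and Gbp7 fell. Across all 9955 measured genes 21.3% rose and 23.6% fell, together 44.9%. The share of members that rose was the same 21.3%, and the share that fell was lower, at 12.8%; with 1 library per genotype neither share could be tested. The median log2 ratio was 0.13 over the measured members and -0.0048 over all measured genes. Rescaling both libraries to the same upper quartile multiplied the KO levels by 0.793, a log2 shift of -0.33 that is smaller for low genes because of the pseudocount. The medians became -0.17 for the members and -0.31 for all genes, with 8 members risen and 10 fallen. The other rescalings that were tried left 10 members risen and 6 fallen, with a median above 0.

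**Figure D1:**
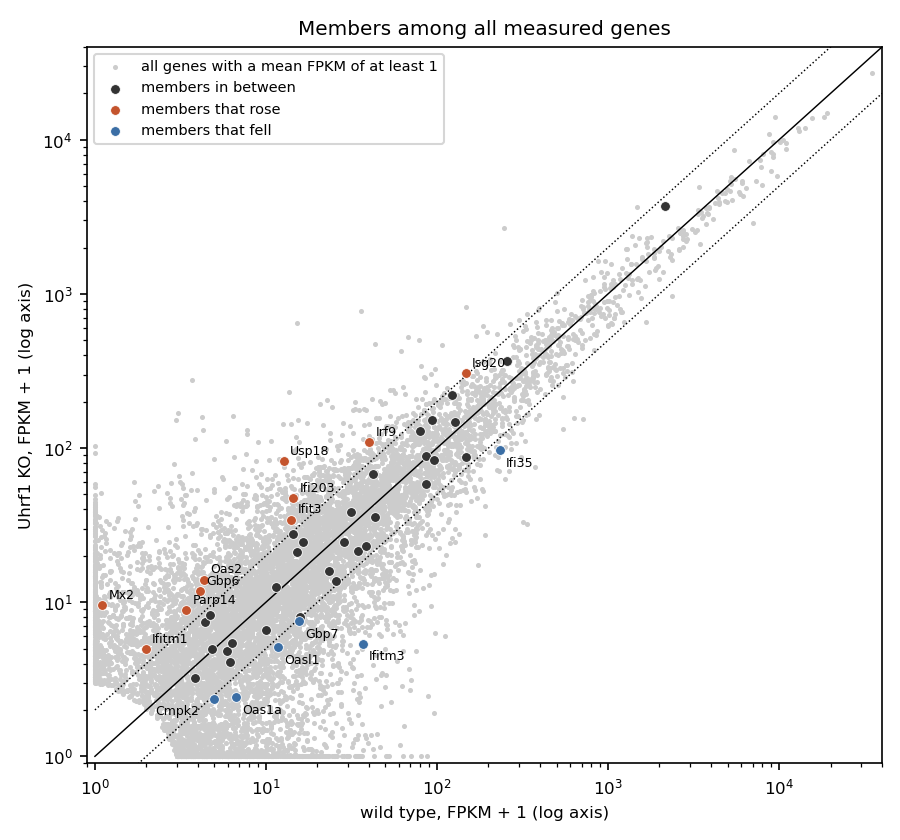
FPKM + 1 in the wild-type library (x, log axis) against the Uhrf1 KO library (y, log axis), 1 point per measured gene. Members are coloured by whether they rose (10), fell (6) or did neither (31); the solid line marks equal levels and the dotted lines a log2 ratio of 1 and -1, and the members lie on both sides of the solid line within the grey cloud of all genes.

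The share past the size rule depends on the level of a gene, so the members were also read by level. Where the mean FPKM was 1 to 5, 4 of 10 members rose or fell, against 61.1% of all genes there. At 5 to 25 it was 7 of 16 against 47.3%, at 25 to 100 it was 3 of 12 against 32.3%, and at 100 or more it was 2 of 9 against 13.7%. Counting error was small beside these differences: the interval of the fold left out 1 for 46 of the 48 members, all but Irf1 and Iigp1. The same held for most of the transcriptome, where 9.16% of measured genes with reads in both libraries had an interval that held 1.

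The range of levels was wide and its order was largely shared by the libraries. Ifi27l2a, which encodes a small hydrophobic protein induced by type I interferon, was the most abundant member at 2160.3 and 3703, rank 87 and rank 50 of all genes. It made up 52.0% of the members' summed FPKM in the wild-type library and 60.5% in the KO library. In the files its locus is shared with Ifi27 (191 and 283), so the counting could have split reads between them. The sum of all members was 4152 and 6119, and without Ifi27l2a it was 1991.5 and 2416. Bst2 was the second in both libraries. The least abundant were Mx2 at 0.101 in the wild type and Ifi44 at 0.772 in the KO. Spearman's rho between the libraries was 0.83 over the 48 members and 0.70 over all measured genes, a description of genes that share the same 2 libraries.

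**Figure D2:**
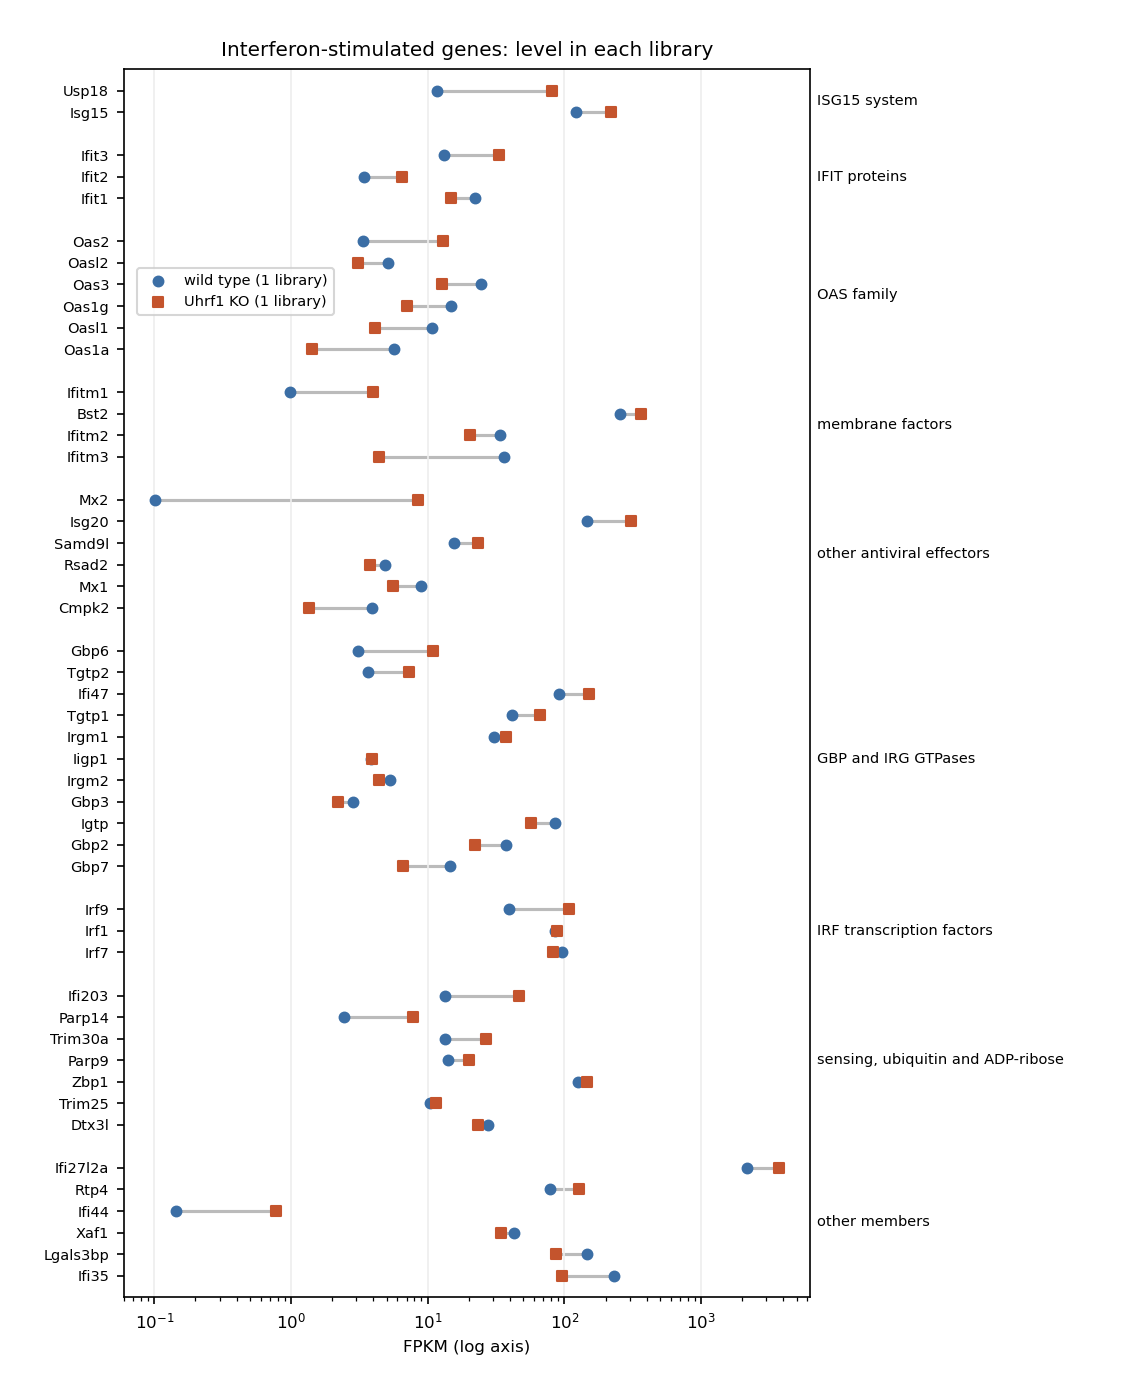
FPKM (log axis) of the 48 members in the wild-type library (circles) and the Uhrf1 KO library (squares), grouped by role and ordered within a role by log2 ratio; grey lines join the libraries. Ifi27l2a stands above all others in both libraries, and within most roles some members are higher and others lower in the KO.

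The ISG15 system was higher in the KO. Isg15, a ubiquitin-like protein that is attached to other proteins after interferon (Entrez gene 100038882, chromosome 4, 156199424 to 156200818), had 121.6 and 219.5, on 1669 and 1316 reads. Its count fold was 1.68 (interval 1.56 to 1.81), short of the size rule. Usp18, the protease that removes ISG15 and also damps the type I receptor (Entrez gene 24110, chromosome 6, 121245906 to 121270917), had 543 and 1727 reads and rose from 11.7 to 81.1, by 6.79-fold (interval 6.16 to 7.49). Among the members only Mx2 had a larger rise.

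The IFIT genes, whose products bind viral RNA, stand next to each other on chromosome 19 and differed in direction. Ifit3 (Entrez gene 15959, 34583119 to 34588982) rose from 13.1 to 33.4, a count fold of 2.51 (interval 2.29 to 2.76). Ifit2 had 3.43 and 6.46 and Ifit1 had 22.4 and 14.9, so Ifit1 was the lower member in the KO although its promoter holds the same kind of ISRE matches as Ifit3. Ifit3 is uncertain by itself, because 51.2% of the 50-base stretches of its transcripts also stand in its copy Ifit3b, which had 2.53 and 1.65. Summed over both copies the reads were 979 and 1011, a fold of 2.20 (interval 2.02 to 2.41).

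Of the 6 oligoadenylate synthetase (OAS) members 5 were lower in the KO, beside 4991 of all 9955 measured genes. Their relatives Oas1b (5.11 to 47.1) and Oas1c (1.37 to 17.1) rose. Those 2 are not members and were named after their values were seen. OAS enzymes make an oligoadenylate that switches on RNase L, which cuts RNA, and all 6 members lie on chromosome 5. Oas1a (Entrez gene 246730, 120896256 to 120907544) had 267 and 30 reads and fell from 5.71 to 1.42, by 4.17-fold (interval 2.85 to 6.31). Oasl1, which in mouse restrains translation of Irf7 and is not an active synthetase, fell from 10.7 to 4.12, 2.78-fold (interval 2.19 to 3.58). Oas1g had 14.8 and 7.04, Oas3 had 24.5 and 12.7, and Oasl2 had 5.16 and 3.09, all lower in the KO and short of the size rule. Oas1g (-1.26) and Oas3 (-1.20) passed it after upper-quartile scaling, Oas1g also by scaled counts and with a pseudocount of 0.1. Oas2 (Entrez gene 246728, 120730333 to 120749886) was the 1 member among the 6 that rose, from 3.34 to 13.0, by 3.74-fold (interval 3.29 to 4.26). Oas1a and Oas1g share 57.6% and 45.2% of their stretches with each other; their summed reads were 1022 and 192, a fall by a factor of 2.49 (interval 2.14 to 2.93). At a pseudocount of 5, Oas1a (log2 ratio -0.74) and Oasl1 (-0.78) were short of the size rule.

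Membrane factors held the largest fall. Ifitm3, which stops viruses from leaving endosomes (Entrez gene 66141, chromosome 7, 141009590 to 141010744), had 468 and 26 reads and fell from 35.9 to 4.38, by 8.44-fold (interval 5.68 to 13.1). Ifitm1, its neighbour, moved the other way from 0.976 to 3.98, but on only 13 and 24 reads, a fold of 3.94 (interval 1.93 to 8.42), and its log2 ratio was 0.59 with a pseudocount of 5. Ifitm2 had 33.6 and 20.5; 48.5% of its stretches also stand in other annotated genes, mostly the predicted gene Gm45717. Bst2 (tetherin), which holds budding virions at the surface and is abundant on plasmacytoid dendritic cells, had 257 and 364. Among those cells' other markers Siglech had 20 and 4 reads, and the summed level of the 5 markers found was 120 and 39.8. Ly6d, at 61.9 and listed at 0 in the KO, made most of that difference, while Pacsin1 had 55.3 and 38.5 and Tcf4 had 1.56 and 1.13. By counts Pacsin1 had 2168 and 969 reads, a fold of 0.954 (interval 0.883 to 1.03) that did not exclude equal levels.

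Other antiviral effectors split evenly. Mx2, a dynamin-like GTPase (Entrez gene 17858, chromosome 16, 97536081 to 97560901), rose from 0.101 to 8.54. It had 7 wild-type and 268 KO reads, a fold of 81.7 (interval 39.1 to 205), the largest rise of any member. Mx1, its neighbour, which C57BL/6 mice carry in a non-functional form, had 8.98 and 5.61. Of the Mx2 stretches 4.38% also stand in Mx1. Isg20, an RNA exonuclease, rose from 147 to 306 with a log2 ratio of 1.06; its count fold was 1.92 (interval 1.81 to 2.03), and by scaled counts or after upper-quartile scaling it was short of the size rule. Cmpk2, a mitochondrial nucleotide kinase, fell from 3.94 to 1.36 (2.79-fold, interval 2.16 to 3.63), with a log2 ratio of -0.49 at a pseudocount of 5. Rsad2 (viperin), which stands beside Cmpk2 on chromosome 12, had 4.90 and 3.81, and Samd9l had 15.5 and 23.5.

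The interferon-induced GTPases, which act on vacuoles that hold microbes, mostly stayed within the size rule. Of 11 members 1 rose, 1 fell and 9 did neither, with a median log2 ratio of 0.03. Of all measured genes 21.3% rose and 23.6% fell, and the difference from this share could not be tested. Gbp6 (Entrez gene 100702, chromosome 5, 105270702 to 105295871) rose from 3.11 to 10.9, by 3.62-fold (interval 3.26 to 4.02), with a log2 ratio of 0.97 at a pseudocount of 5. It is uncertain by itself, since 70.7% of its stretches stand in other genes, 65.0% in the predicted gene Gm43302 and 45.9% in Gbp10. The reads summed over Gbp6 and Gbp10 were 1585 and 2688, a fold of 3.62 (interval 3.40 to 3.85); Gm43302 is not in this sum. Gbp7, from the cluster on chromosome 3 (Entrez gene 229900, 142530336 to 142550151), fell from 14.7 to 6.54 (2.12-fold, interval 1.97 to 2.29), with -0.77 at that pseudocount. In the same cluster Gbp2 had 37.6 and 22.1 and Gbp3 had 2.84 and 2.21, so all 3 members there were lower in the KO.

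Among the immunity-related GTPases on chromosome 11, Ifi47 had 92.1 and 151 and Tgtp1 had 41.4 and 66.5. Tgtp1 and Tgtp2 share 79.4% of the Tgtp1 stretches, and summed they had a fold of 1.66 (interval 1.59 to 1.73). Tgtp2 and Ifi47 also share a locus in the files. The regulatory members of the family stayed within the size rule, with Irgm1 at 30.3 and 37.2, Irgm2 at 5.32 and 4.40, and Igtp at 85.6 and 57.2. Iigp1, on chromosome 18, had 3.84 and 3.93.

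**Figure D3:**
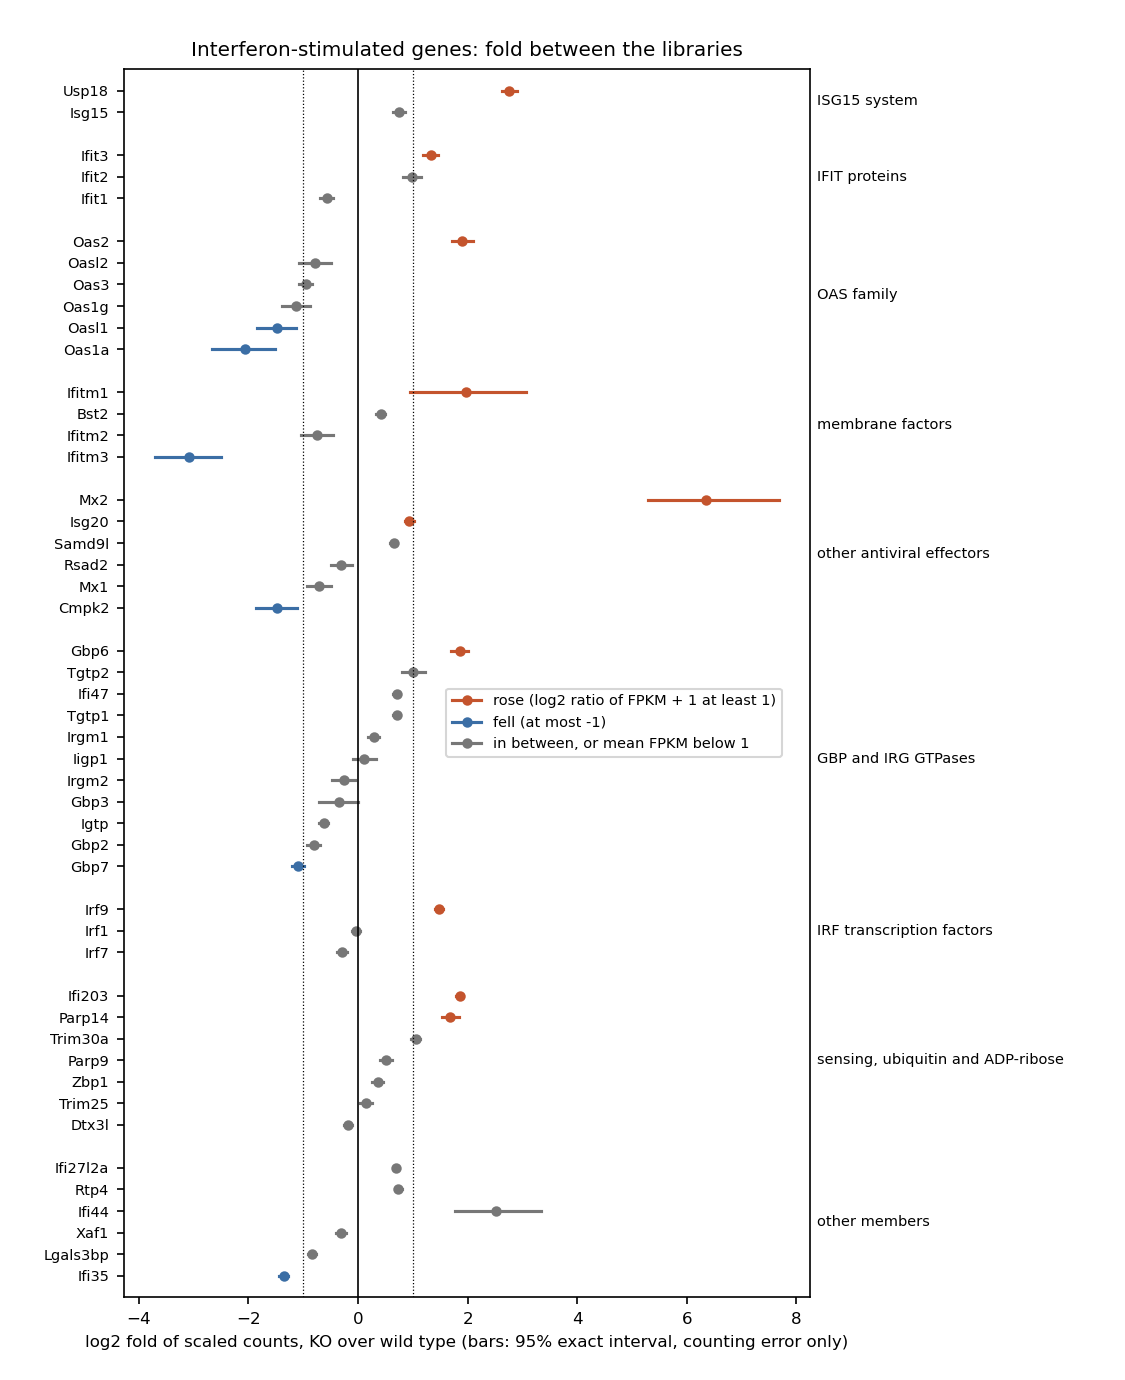
Log2 fold of scaled counts (KO over wild type) for the 48 members by role; bars are 95% exact intervals for counting error only, and dotted lines mark -1 and 1. Mx2 stands farthest to the right and Ifitm3 farthest to the left; OAS members other than Oas2 lie left of 0, and the IRG and GBP genes spread around it.

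The IRF transcription factors separated. Irf9, the DNA-binding subunit of the factor that acts on the ISRE (Entrez gene 16391, chromosome 14, 55603985 to 55610030), had 2738 and 3558 reads and rose from 39.1 to 108, by 2.77-fold (interval 2.64 to 2.92). Irf7, which drives interferon-alpha genes, had 95.5 and 83.1. Irf1, a target of interferon-gamma, had 85.6 and 87.8, with a count fold of 0.976 (interval 0.926 to 1.03) that did not exclude equal levels at this depth.

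Members that act in sensing, ubiquitin transfer or ADP-ribosylation were higher in the KO in 6 of 7 cases, beside 4964 of all 9955 measured genes. After upper-quartile scaling 4 of these 7 members were higher, as Zbp1 at -0.11 and Trim25 at -0.17 turned. Of the 7, 2 rose and none fell, beside 21.3% and 23.6% of all measured genes. Ifi203, of the PYHIN family of DNA-binding proteins (Entrez gene 15950, chromosome 1, 173920400 to 173942866), rose from 13.5 to 46.4, by 3.61-fold (interval 3.44 to 3.80). Parp14, a mono-ADP-ribosyltransferase (Entrez gene 547253, chromosome 16, 35831892 to 35871518), rose from 2.43 to 7.85, by 3.22-fold (interval 2.90 to 3.57), with a log2 ratio of 0.79 at a pseudocount of 5. Its neighbours Parp9 and Dtx3l, whose products work as a complex, had 14.1 and 20.1, and 27.5 and 23.5. They share a locus in the files, so reads of their overlap cannot be told apart where strand was not used. Trim30a had 13.5 and 26.7, with a log2 ratio of 0.93 just short of the size rule. Zbp1, a sensor of Z-form nucleic acid, had 126 and 147, and Trim25, a ubiquitin ligase, had 10.5 and 11.6.

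Of the remaining members, Ifi35, a binding partner of Nmi (Entrez gene 70110, chromosome 11, 101448412 to 101458701), had 6964 and 1272 reads and fell from 231 to 95.5, by 2.57-fold (interval 2.42 to 2.73). It was the third most abundant member in the wild type and the ninth in the KO. Rtp4 had 79.1 and 129, Xaf1 had 42.6 and 34.5, and Lgals3bp, a secreted glycoprotein, had 147 and 86.9. Ifi44 was the member below a mean FPKM of 1, at 0.143 and 0.772 on 20 and 54 reads.

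Members that rose and members that fell were found both with and without the ISRE letters. Of 20 measured members with the core in a window, 2 rose and 3 fell, with a median log2 ratio of -0.27. Of 16 measured members with a window and no core, 3 rose and 3 fell, with a median of -0.08. A window was found for all 6 members that fell but for only 5 of the 10 that rose. Usp18, Mx2, Oas2, Gbp6 and Parp14 had none, so both medians leave out these rises. Over all 47 measured members the median was 0.13. Among all measured genes with a window, 23.1% of the 320 with the core rose and 19.7% fell, with a median of 0.05. Of the 7660 without it 20.9% rose and 23.6% fell, with a median of 0.003.

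Of 21 interferon ligand names 4 were in the files, and none of the 4 had a read in the KO library. Ifng had 39 wild-type reads (FPKM 0.844), and a count of 0 in the KO allows up to 3 reads there. The other ligand with reads was Ifnz, with 12 and 0. Ifnb1 was not analysed here.

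The type I receptor genes were higher in the KO. Ifnar1 (chromosome 16, 91485032 to 91510523) rose from 7.90 to 18.1, by 2.34-fold (interval 2.20 to 2.49), and Ifnar2 (91372783 to 91405589) rose from 29.4 to 71.5, by 2.60-fold (interval 2.42 to 2.80). Il10rb, which lies between them and serves receptors for interleukin-10 and type III interferon, rose from 0.785 to 41.2 on 43 and 1055 reads, 52.3-fold (interval 38.6 to 72.8). Of the type II receptor, Ifngr1 had 21.2 and 13.8 and Ifngr2 had 28.2 and 34.5. After upper-quartile scaling the log2 ratios of Ifnar1 (0.79) and Ifnar2 (0.93) were short of the size rule.

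The JAK-STAT relay stayed within the size rule, with 0 of 5 genes past it, beside 44.9% of all measured genes. With so few genes and 1 library per genotype this difference could not be tested. Stat2 had 6.64 and 7.76, with a count fold of 1.13 (interval 0.999 to 1.27), Jak1 had 70.4 and 95.3 and Tyk2 had 7.47 and 8.48. Among 7 inhibitors of the relay 1 rose and none fell, beside 21.3% and 23.6% of all measured genes. Socs3 rose from 6.04 to 41.0, 6.36-fold (interval 5.57 to 7.29), and Socs1 had 46.9 and 83.9.

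Genes that sense nucleic acids moved both ways, with 4 of 19 risen and 4 fallen (21.1% each), near the 21.3% and 23.6% of all measured genes. Ifih1, which encodes the RNA sensor MDA5, rose from 0.824 to 9.49, by 11.9-fold (interval 10.2 to 14.0). Adar, the RNA-editing enzyme, rose from 9.45 to 32.4, the adaptor Ticam1 from 1.22 to 9.57 and the kinase Ikbke from 33.4 to 78.3. Dhx58, which encodes the sensor LGP2, fell from 23.8 to 6.53, the adaptor Mavs from 8.69 to 3.68 and Irf8 from 4.33 to 1.44. The DNA exonuclease Trex1 had 41.8 on 799 reads and was listed at 0 in the KO. Ddx58, which encodes RIG-I, had 14.3 and 15.8.

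A list of other interferon-induced genes, outside the 48, held more rises than falls. Of its 50 measured genes 19 (38.0%) rose and 5 fell, beside 21.3% and 23.6% of all measured genes, with a median log2 ratio of 0.53; the difference from the members could not be tested. By the log2 ratio with a pseudocount of 1, the 4 largest changes were rises. Trim12a had 0.682 and 59.3 (84.1-fold, interval 58.6 to 125), and Trim34a, also in the Trim cluster of chromosome 7, had 0.405 and 15.7. Gbp11 had 0.0106 and 9.91, on 1 and 435 reads, and Ms4a4b, a membrane protein of T cells, had 42.3 and 471. Stretches shared with copies were sought for the members only, so these values have no such check. In the files Trim12a also shares its locus with Gm15133. Of 13 antigen processing genes, which interferon-gamma induces through Nlrc5, 2 rose (15.4%) and none fell, beside 21.3% and 23.6% of all measured genes. These were abundant genes, with a median FPKM of 428 and 357. At a mean FPKM of 100 or more, 7.49% of all genes rose and 6.21% fell, so few calls could arise in this list. Nlrc5 itself rose from 5.87 to 23.5 and the peptide transporter subunit Tap2 from 98.1 to 254, while Psme2 had 118 and 210 and Psmb10 had 616 and 357.

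**Figure D4:**
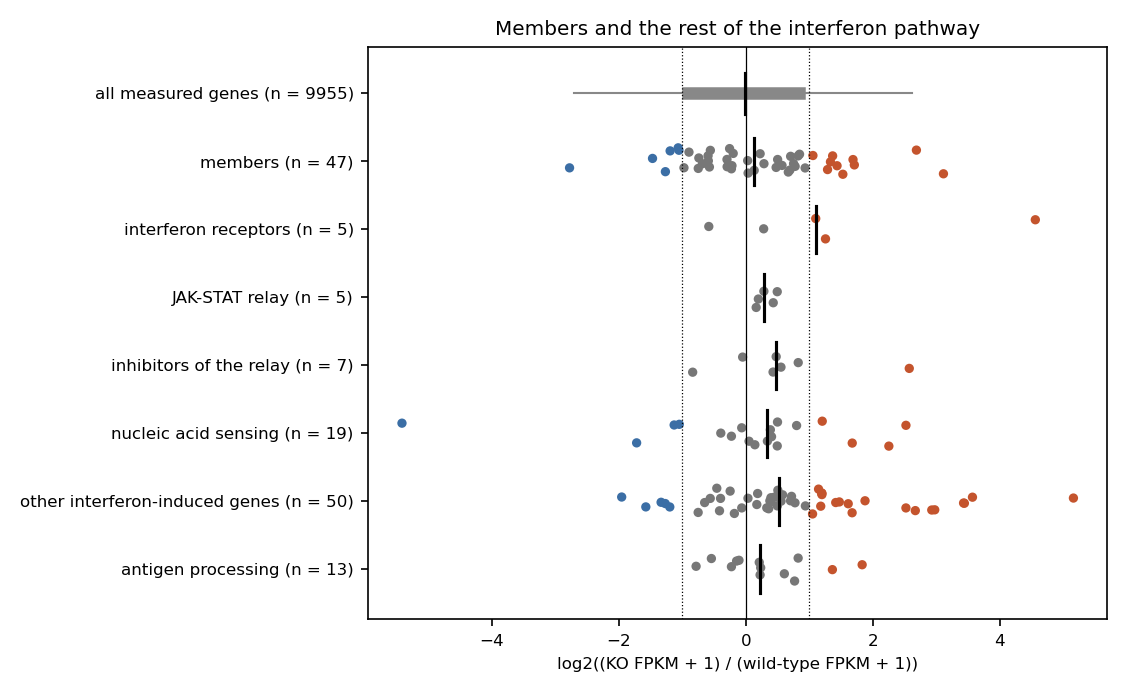
Log2((KO FPKM + 1) / (WT FPKM + 1)) for the members and for each pathway list, 1 point per measured gene; black bars are medians. For all 9955 measured genes the thick bar spans the middle 50% of genes and the thin bar the middle 90%; the relay genes lie within the size rule, and the other interferon-induced genes have a median of 0.53 beside 0.13 for the members.

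Markers of other cell types differed between the libraries beside these results; the single markers below were named after their values were seen. Of 9 genes of naive T cells 7 rose and 1 fell, beside 21.3% and 23.6% of all measured genes, with a summed FPKM of 405 and 1641. Macrophage and dendritic cell genes were higher in 8 of 12 found, with a sum of 327 and 3093, of which Apoe was 246 and 2677; Adgre1, Itgax, Fcgr1 and Flt3 were at 0 in both libraries. Erythroid genes had a sum of 103 and 803, with Klf1 and Slc4a1 at 0 in both. Of thymic epithelium and stroma the sum was 28.2 and 83.9; Krt18, Col1a1 and Col3a1 rose, while Epcam had 60 and 0 reads. Neutrophil genes had a sum of 189 and 14.7, of which Camp rose from 0.0956 to 13.7 while S100a8, S100a9 and Ngp fell. Of 8 genes of double-positive thymocytes 5 fell and none rose, beside 23.6% and 21.3% of all measured genes. Their median log2 ratio was -1.60. Rag1 fell from 13.3 to 1.66, Arpp21 from 25.4 to 2.99 and Cd24a from 15.5 to 0.142, and Rag2 and Ptcra fell as well. Their summed FPKM was nevertheless higher in the KO, at 395 and 479, and most of it was Cd8b1 at 237 and 367. Cd8a had 52.6 and 67.2 and Dntt had 37.7 and 36.8. Of 12 genes of T and iNKT cells 2 rose (16.7%) and 4 fell (33.3%), beside 21.3% and 23.6% of all measured genes. The difference from these shares could not be tested. The falls were Icos (247 to 62.0), Gata3 (56.9 to 24.4), Il4 (316 to 150.3) and Zbtb16. The part of all these cell types in the interferon-stimulated genes was not tested. In sorted bulk RNA, fewer cells of a type and less RNA per cell cannot be told apart.

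**Figure D5:**
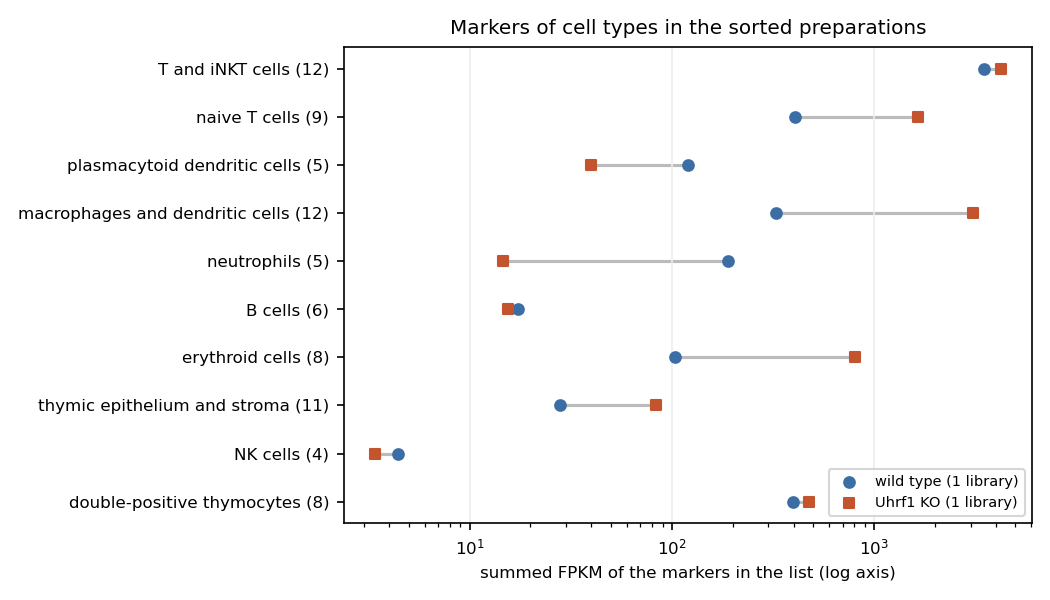
Summed FPKM (log axis) of the markers of each cell type found in the files (number in brackets) in the wild-type library (circles) and the Uhrf1 KO library (squares). Naive T cell, macrophage and dendritic cell, erythroid and stromal sums are higher in the KO, and neutrophil and plasmacytoid dendritic cell sums are lower. The double-positive thymocyte sum is also higher, although 5 of its 8 genes fell.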

How the data were processed

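Stage 1 iNKT cells were sorted from the thymus on an Aria II, lysed in Trizol and made into TruSeq RNA libraries, per the labels' protocols. TopHat2 2.0.9, Cufflinks 2.1.1 and mm10 were used, per the submitters' processing notes; what each did, and with which annotation, strand setting or filter, is not stated by the sources used here. The authors deposited an FPKM value per gene, per the file headers. A second deposited column, called a count in the headers, behaves as a scaled signal: 98.3% of nonzero wild-type values and 98.7% of nonzero KO values are whole multiples, within 0.01 of a read, of 1 step per library (0.799 and 1.70). Dividing by the step gave reads, whole for all 48 members in both libraries. No count model was fitted, since each genotype has 1 library.

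FPKM is the scale of the size rule (pseudocount 1, mean FPKM of at least 1). Folds use reads times the step, with Clopper-Pearson intervals; a count of 0 allows up to 3 reads. Genes were matched by Entrez ID to RefSeq for coordinates. Stretches of 50 bases were taken from all GENCODE transcripts of each member and sought in those of other genes. The members and lists were chosen with earlier results of these data known. The rule for named genes was every member past the size rule, well known members, pathway genes past the rule, the 4 largest changes of the longer lists, and fixed receptor and relay genes; other members are given by value. A relay gene named by the rule and a marker gene are not reported here. Of 225 names in the other lists 196 were found. The size rule was tested on simulated data. The alternatives tried were 13 planned and 1 chosen after seeing the data. The tools were scipy 1.17.1, pandas 2.3.3, numpy 2.4.6 and, for figures, matplotlib 3.10.9, under Python 3.11.15.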

Additional observations from a re-analysis of the deposited data

How the results depend on the processing

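No paired analysis was possible because each genotype has 1 library, and for the same reason no library could be left out. The members had 10 risen, 6 fallen and a median log2 ratio of 0.13. With a pseudocount of 5, 7 members rose, 2 fell and the median was 0.10, beside 5 fallen pathway genes (9 before). Of all measured genes 1292 then rose and 1254 fell (2116 and 2354 before). After scaling to the upper quartile 10 members fell and the median was -0.17, below 0 as was that of all genes (-0.31); risen genes then made up 35.7% of all calls, against 47.3% before. A size rule of 2 left 2 risen and 1 fallen member, 12 risen and 1 fallen pathway gene, and 851 risen and 1026 fallen genes in all. A size rule of 0.5 gave 20 risen and 15 fallen members, 16 fallen pathway genes, and 3332 risen and 3445 fallen genes in all. At a mean FPKM of at least 5, the members' median was 0.29, and 1424 genes rose and 1247 fell. With more than 10 reads in each library the members' median was 0.084, and 1692 genes rose and 1503 fell. Members with a locus of their own had a median of 0.033. Among members that share at most 10% of their stretches, an alternative chosen after seeing the data, 7 rose and 3 fell. By construction 12 members are left out there. Of the 16 members past the size rule, 7 kept a log2 ratio past it under all 8 alternatives that were run per gene. These were alternatives of pseudocount, filter, scaling and unit. None of the 16 changed direction under them, and 6 others passed the size rule under at least 1, among them Oas1g and Oas3. The filters leave a gene's ratio unchanged, so they could not remove a call in this count. At a mean FPKM of at least 5, 8 risen and 4 fallen members remained. Mx2, which is among the 7, was then not measured (mean FPKM 4.32). The causes of these shifts were not tested, apart from those that follow from the size rule and the filters themselves. Depth limits Ifitm1, Ifi44 and the wild-type value of Mx2, which rest on 13, 20 and 7 wild-type reads.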

Other observations

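Families outside the 48 members gave further differences, described here by genes chosen after their values were seen. In the OAS cluster of chromosome 5, the non-members Oas1b and Oas1c rose. Oas1b had 234 and 979 reads (8.93-fold, interval 7.73 to 10.3) and Oas1c had 84 and 471. Both went against Oas1a, Oas1g and Oas3, which were lower in the KO. Oas2, a member in the same cluster, rose like them. In the GBP cluster of the same chromosome Gbp4 rose from an FPKM of 6.23 to 25.6 and Gbp10 from 6.86 to 24.1, beside Gbp8 at 29.7 and 42.6 and Gbp9 at 7.38 and 4.34. In the Trim cluster of chromosome 7, where Trim12a and Trim34a rose, Trim12c had 10.4 and 5.78.

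The 5 Schlafen genes of the list, a family linked to T cell quiescence in mouse, were higher in the KO: Slfn5 rose from 4.53 to 14.4 and Slfn9 from 2.06 to 6.02, while Slfn1 had 93.8 and 181, Slfn2 had 192 and 271 and Slfn8 had 15.1 and 26.6. Apol9b rose from 7.66 to 48.8, and its close copy Apol9a rose on 368 and 1086 reads. Among the falls, Trafd1, which restrains innate signalling, fell from 15.8 to 3.32, Nmi, the partner of Ifi35, from 43.3 to 16.6, and Ifi30, a lysosomal thiol reductase, from 218 to 89.7. Nmi and Ifi35 were thus both lower in the KO. Parp12 fell from 2.28 to 0.102, on 234 and 5 reads, 21.9-fold by counts.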
